A study of Patiria miniata with 18 samples.

Results

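Uncut bat star larvae (*Patiria miniata*) sampled at 6 days post-bisection (dpb) were compared with uncut larvae sampled at 3 dpb, which describes how gene expression moved in intact, feeding larvae while their bisected siblings regenerated. The comparison rests on 4 of the 18 RNA-Seq libraries of the experiment, 2 uncut libraries per day, chosen by their labelled treatment and day and matched by replicate number. The larvae were 7 days post-fertilization (dpf) when their siblings were cut, so the uncut larvae were 10 dpf at 3 dpb and 13 dpf at 6 dpb. The other 14 libraries hold uncut larvae at 0 dpb and anterior and posterior fragments at 0, 3 and 6 dpb, 2 per group. All groups were kept at 16 °C and fed a single-celled alga, the labels name no genotype, transgene or drug for any of them, and each library was made from a pool of about 300 siblings. The uncut larvae serve as controls for age and culture, and they were never wounded. A pool does not stand for single animals, and the labels do not say how the replicate pools were kept apart. The p values therefore measure the spread between pools, estimated over all 18 libraries, fragments included.

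The bipinnaria is the swimming and feeding larva of a sea star. Ciliary bands drive swimming and carry algae to the mouth, a tripartite gut digests them, paired coelomic pouches flank the gut, and blastocoelar mesenchyme cells move in the body cavity. During normal larval life this body grows by cell division, the nervous system and coeloms expand, and no skeleton is formed as it is in the sea urchin pluteus.

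Counts on loci were 24000186 and 20925269 in the uncut libraries at 3 dpb (replicates 1 and 2) and 36152675 and 16370600 at 6 dpb, and values below are given in that order as CPM (each locus count scaled to the total of its library) after TMM normalization. The deepest library was replicate 1 and the shallowest replicate 2 of the same day, 6 dpb. Loci assembled from the reads carry identifiers of the form XLOC and gene names from the deposited table, and positions are on scaffolds of the P. miniata v1.0 assembly. Of 80165 loci, 31798 were detected at more than 3 CPM in at least 2 libraries and were tested, and 14559 of these have a gene name. The fixed markers of larval territories matched 92 loci: 56 of the ciliary band, 9 of the gut, 11 of neurons, 6 of coelomic mesoderm, 9 of mesenchyme and 1 for muscle, and each was above 0 in all 4 libraries. The single muscle match, *Myh9/Myh10/Myh11*, is named for non-muscle as well as muscle myosins, so the muscle part of the larva was checked through it only loosely. None of the 92 was a differentially expressed gene (DEG, below) and the summed ciliary band markers stood at 4850 and 6070 CPM at 3 dpb and 5120 and 6590 CPM at 6 dpb. Gut markers summed to 1120 and 1100 CPM and then 807 and 1060 CPM, neurons to 361 and 351 CPM and then 400 and 344 CPM, coelomic mesoderm to 82.1 and 50.6 CPM and then 90.9 and 40 CPM, and mesenchyme to 496 and 414 CPM and then 497 and 499 CPM. Median log2 changes were 0.08 for the ciliary band, -0.27 for the gut, 0.07 for neurons, -0.53 for coelomic mesoderm and 0.22 for mesenchyme. In RNA from whole larvae, fewer cells of a type and less RNA per cell cannot be told apart.

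Few loci separated the days beyond the spread between libraries. Using the criteria of the study for a DEG, an unadjusted p value below 0.05 and more than a 2-fold difference, 1279 loci (4.02% of those tested) were DEG, 603 of them higher at 6 dpb (1.9%) and 676 lower (2.13%). At any fold, 1773 loci (5.58%) had an unadjusted p below 0.05, against the 5% that this threshold itself allows. After Benjamini-Hochberg adjustment in edgeR, 19 loci (0.0598%) passed at 0.05, with 15 lower and 4 higher at 6 dpb. DESeq2 called 190 loci at the same adjusted threshold, 17 of the 19 among them. The fit without the replicate block called 2 loci, and a fit of the 4 uncut libraries alone called 0 with or without the block, although 1136 and 411 loci were then under an unadjusted p of 0.05. Leaving out 1 of the 4 libraries left 8 loci without 3 dpb replicate 1, 10 without 3 dpb replicate 2, 2 without 6 dpb replicate 1 and 5 without 6 dpb replicate 2.

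The replicate numbers did not change together over these 3 days. Across the 31798 loci, the change of replicate 1 and that of replicate 2 had a Pearson r of -0.0492 and a Spearman rho of -0.0911, and 14578 loci (45.8%) moved in the same direction in both. Loci are not independent replicates, and no test was attached to this value. Median changes over all loci were 0.02 and 0.00 on the log2 scale, with a standard deviation of 0.871 for replicate 1 and 1.14 for replicate 2. Of the 1279 DEG, 1156 (3.64% of tested loci) moved the same way in both replicate numbers, which the criteria favour, and 852 had no overlap between the 2 libraries of each day, against 10.2% of all tested loci with both 6 dpb libraries above both 3 dpb libraries and 9.64% with both below.

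**Figure D1:**
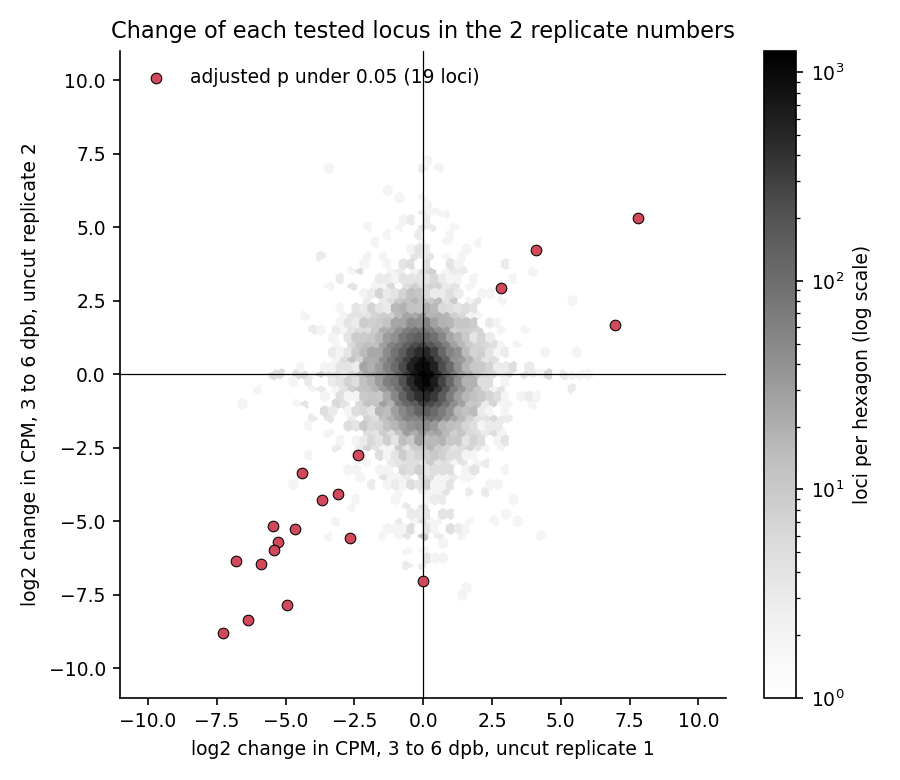
Change of each tested locus from 3 to 6 dpb in uncut larvae, as the log2 difference in CPM with a prior count of 2, in replicate 1 (x axis) and replicate 2 (y axis). Grey hexagons count loci on a log scale and red points are the 19 loci at an adjusted p below 0.05. The cloud of 31798 loci has no diagonal trend, and 18 of the 19 called loci have the same sign in both replicate numbers.

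Each replicate number moved with the fragments of the same number. The change of uncut replicate 1 had an r of 0.797 with that of anterior replicate 1 and 0.759 with that of posterior replicate 1, while the values against the fragments of replicate 2 were -0.0596 and -0.116. Uncut replicate 2 likewise had an r of 0.834 with anterior replicate 2 and 0.701 with posterior replicate 2, and -0.0547 and -0.00973 with the fragments of replicate 1. These comparisons share no library, but the labels do not say whether pools of one number on different days came from the same parents. The difference between the replicates of uncut larvae was itself similar at 0 and 3 dpb (r of 0.6 across loci) and less so at 3 and 6 dpb (0.423) and at 0 and 6 dpb (0.179). What differs between days and what differs between the pools therefore cannot be told apart within a replicate number, and this holds for every result below.

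**Figure D2:**
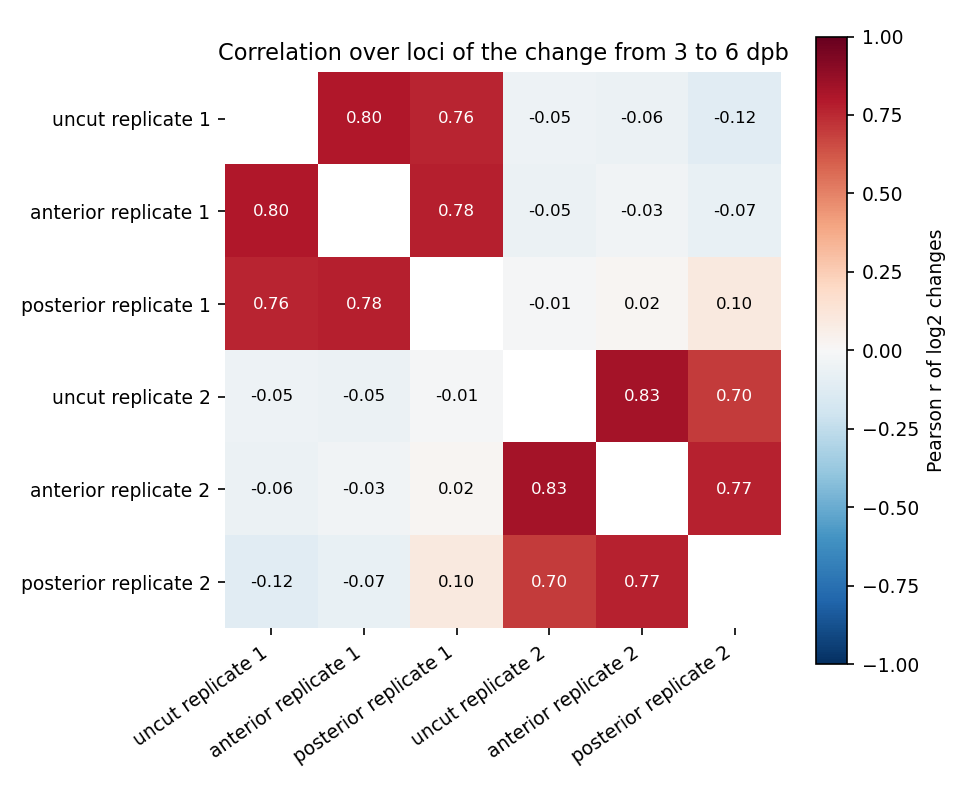
Pearson correlation across 31798 loci between changes from 3 to 6 dpb, for uncut larvae, anterior fragments and posterior fragments of each replicate number. Cells within a replicate number are between 0.701 and 0.834, and cells between replicate numbers are between -0.116 and 0.0974.

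Most of the 15 loci that fell were all but absent from the later libraries, 12 of them with under 1 CPM in every library of 6 dpb, fragments included. *MaoaL* (XLOC_037275, scaffold 2746, 34762 to 42006) is named for monoamine oxidase A, an enzyme that breaks down monoamine transmitters. It stood at 12.8 and 7.59 CPM at 3 dpb, and at 6 dpb it had 1 count in one library and 0 in the other. The ratio of 6 dpb to 3 dpb was 0.00164, with a 95% exact interval for counting error of 4.15e-05 to 0.00919 (edgeR adjusted p = 5.0e-04). At 0 dpb its level had been 6.77 and 5.75 CPM, so all 4 earlier uncut libraries expressed it. The 3 other tested loci named *MaoaL* did not pass the test, and *MaoaL* XLOC_045076 stood at 13.9 and 24.2 CPM at 3 dpb and 13.9 and 12.2 CPM at 6 dpb.

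*Hypp_833* (XLOC_068587, scaffold 7318, 6895 to 20547), a predicted protein with no assigned function, stood at 2.82 and 21.3 CPM at 3 dpb and at 0 in both libraries at 6 dpb. This is at least 203-fold lower, computed against a floor of 3 counts over the 2 libraries (adjusted p = 6.9e-04). Of the 4 tested loci with this name no other passed the test. XLOC_068592, an unnamed locus on the same scaffold (23169 to 24882), stood at 0.499 and 4.33 CPM and then at 0 and was at least 40.5-fold lower. A pair of loci on scaffold 12038 named *Egf/Ig/Lnb/Tm7/Gpcr*, for receptors with EGF and immunoglobulin domains and a 7-pass membrane part, behaved alike. XLOC_007563 stood at 4.03 and 3.21 CPM and XLOC_007570 at 2.28 and 3.50 CPM at 3 dpb, and both were at 0 in both libraries at 6 dpb, at least 70.4-fold and 53.5-fold lower. Of the 9 other tested loci with this name none passed the test.

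*Top3A* (XLOC_036320, scaffold 2628, 46950 to 69582), which encodes a topoisomerase that resolves linked DNA strands, was the only named fallen locus still above 1 CPM in both uncut libraries at 6 dpb. It stood at 15.2 and 8.17 CPM at 3 dpb and 2.85 and 1.14 CPM at 6 dpb, a log2 fold change of -2.57 ± 0.35 (SE, adjusted p = 0.0289). The name is carried by 2 tested loci, and the other did not pass. *Hypp_2348* stood at 5.92 and 5.74 CPM and then at 0.0471 and 0 CPM, a ratio of 0.00597 with an interval of 0.000719 to 0.0218. *Psgp* stood at 0 and 12.2 CPM at 3 dpb and at 0 in both libraries at 6 dpb. Its call (adjusted p = 0.0496) rests on replicate 2 alone. The 8 other fallen loci, XLOC_068592 among them, have no name. XLOC_014441 had the highest level of them at 3 dpb in replicate 2, with 14.3 and 41.6 CPM and then 0 in both libraries, at least 494-fold lower.

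The fallen loci were low in the fragments at 6 dpb as well. In 12 of the 15, every one of the 6 libraries of 6 dpb, fragments included, was below every one of the 12 libraries of 0 and 3 dpb, and 5 were at 0 in all 6. The exceptions were *Top3A*, *Psgp* and the unnamed XLOC_061694. All 15 were chosen for a fall in a fit that also held the fragments. The share of all tested loci with no overlap of this kind was not counted. Replicate differences of uncut larvae at 6 dpb correlated with those of anterior (r of 0.859) and posterior fragments (0.771), so these libraries are not independent. *MaoaL* ranged from 5.75 to 12.8 CPM before and from 0 to 0.0858 CPM at 6 dpb, and *Hypp_833* from 1.54 to 21.3 CPM before and 0 after. Anterior fragments had 58 loci at an adjusted p (0.182%) and posterior fragments 38 (0.12%) over the same days, and *MaoaL* had an adjusted p of 4.0e-04 in anterior and 6.4e-04 in posterior fragments.

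Of the 4 loci that rose, only *PolppL_55* (XLOC_062774, scaffold 6327, 6287 to 16124) has a name. It was at 0 in both uncut libraries at 3 dpb and at 21 and 3.63 CPM at 6 dpb, at least 268-fold higher (adjusted p = 0.033), and it overlaps another tested locus. In the fragments it was between 0 and 0.208 CPM at 3 dpb and between 5.45 and 27.6 CPM at 6 dpb. Of the 9 tested loci with this name no other passed the test. The unnamed XLOC_075950 stood at 0.214 and 0.584 CPM and then 5.11 and 12.4 CPM, a log2 fold change of 4.44 ± 0.59, and XLOC_019604 at 0.749 and 0.827 CPM and then 5.93 and 7.00 CPM, a log2 fold change of 3.02 ± 0.42. XLOC_065913 stood at 0.357 and 0 CPM and then 56.1 and 0.202 CPM, so that its level at 6 dpb came from replicate 1 (3 counts in replicate 2). Over the 4 fits that each left out 1 library, *MaoaL* and *Hypp_833* kept an adjusted p below 0.05 in all 4, 8 of the 19 loci in none, *Top3A*, *PolppL_55* and *Psgp* among them, and the rest in between.

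**Figure D3:**
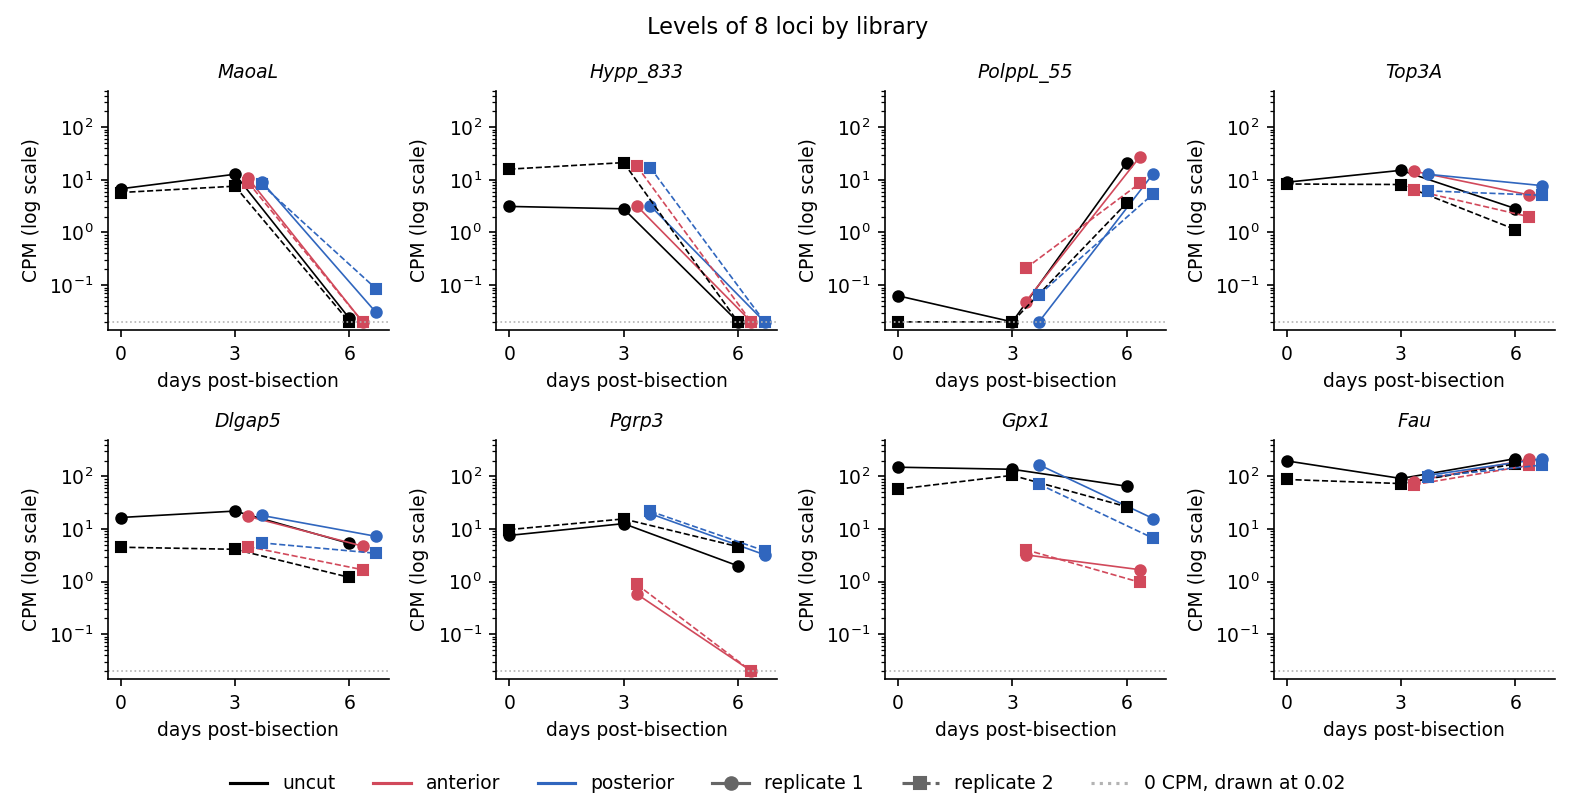
CPM (log axis) of 8 loci in uncut larvae at 0, 3 and 6 dpb and in fragments at 3 and 6 dpb. Black is uncut, red anterior and blue posterior, shifted sideways for sight, circles with solid lines are replicate 1, squares with dashed lines are replicate 2, and a value of 0 is drawn at 0.02. *MaoaL* and *Hypp_833* go to or near 0 in every 6 dpb library, and *Gpx1* and *Pgrp3* are low in anterior fragments on both days.

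Named DEG that missed the adjusted threshold are given by their values. Of the 384 named DEG, 180 were higher and 204 lower at 6 dpb. Among the lower ones, *Pgrp3* (XLOC_060551), a peptidoglycan recognition protein that binds bacterial cell wall, stood at 12.7 and 15.6 CPM at 3 dpb and 2.00 and 4.64 CPM at 6 dpb. Its log2 fold change was -2.19 ± 0.35 (adjusted p = 0.0659), with no overlap between the days. It stood at 19.6 and 21.8 CPM in posterior fragments at 3 dpb and at 3.25 and 3.86 CPM at 6 dpb, and at 0.58 and 0.885 CPM in anterior fragments at 3 dpb. *Gpx1*, a glutathione peroxidase that removes peroxides, stood at 137 and 105 CPM and then 65.3 and 26.6 CPM, a log2 fold change of -1.55 ± 0.38 (adjusted p = 0.314). Posterior fragments held 167 and 71.5 CPM and anterior fragments 3.24 and 4.06 CPM at 3 dpb, and it fell in posterior fragments over the same days (log2 fold change -3.4, adjusted p = 0.00666).

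Further lower DEG included a transcription factor of the Hippo pathway and proteins of vesicles and lysosomes. *Tead4*, the transcription factor partner of Yap, stood at 3.96 and 7.39 CPM and then 1.81 and 2.36 CPM, with a log2 fold change of -1.43 ± 0.35 (adjusted p = 0.301). The other 2 tested *Tead4* loci had log2 fold changes of -0.95 (XLOC_049746) and -0.89 (XLOC_049741). *Neu1*, a lysosomal sialidase, stood at 22.3 and 26.1 CPM and then 11.7 and 10.1 CPM, and *Rab39*, a small GTPase of vesicle traffic, at 3.89 and 6.23 CPM and then 1.77 and 1.21 CPM at a locus that overlaps another. All of these had lower values at 6 dpb in both replicate numbers. *Cbp* stood at 0.178 and 16.0 CPM at 3 dpb and 0.0471 and 0.0673 CPM at 6 dpb, so its higher level at 3 dpb came from replicate 2.

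Among the 180 higher named DEG, those with the smallest p included *Fau* (XLOC_066876), which encodes a ubiquitin-like protein fused to ribosomal protein S30. It stood at 91.6 and 73.3 CPM at 3 dpb and 218 and 173 CPM at 6 dpb, with a log2 fold change of 1.24 ± 0.28 (adjusted p = 0.235). A more abundant *Fau* locus, XLOC_006985, was at 372 and 272 CPM and then 313 and 370 CPM. *Sec61g*, a subunit of the channel that takes new proteins into the endoplasmic reticulum, stood at 39.2 and 29.3 CPM and then 72.8 and 75.3 CPM. *Tmem147*, a membrane protein of the endoplasmic reticulum, stood at 3.00 and 2.33 CPM and then 7.84 and 21.7 CPM, and both of these loci overlap another tested locus. *MPRL11* stood at 3.92 and 4.43 CPM and then 8.85 and 9.22 CPM, with a log2 fold change of 1.11 ± 0.25 (adjusted p = 0.25). At 0 dpb *Fau* had been at 198 and 87.7 CPM and *Sec61g* at 81.7 and 32.4 CPM, so that replicate 1 at 0 dpb was close to its level at 6 dpb and replicate 2 was not.

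Besides *Endrvt33*, given with the mobile elements, the other higher genes of the rule were *Lmf2_1*, named for a lipase maturation factor, with 1.89 and 1.70 CPM and then 6.45 and 5.38 CPM, *Ccdc18* with 5.85 and 5.16 CPM and then 13.8 and 27.2 CPM, and *Egfi* with 0.285 and 3.11 CPM and then 6.90 and 41.8 CPM. A pair of loci named *Polyd* had the same log2 fold change of 1.28 ± 0.33. *Gin1|Lrrc57*, a locus that joins 2 gene names, stood at 6.96 and 1.07 CPM and then 30.9 and 3.43 CPM. None reached the adjusted threshold, with *Endrvt33* at 0.0975 and the others between 0.202 (*Lmf2_1*) and 0.352 (*Polyd*).

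Genes of cell division had the most uneven values. The gene lists hold named loci only, and 2.64% of the 14559 named loci tested were DEG. The mitosis list, which holds spindle, kinetochore, condensin and mitotic kinase genes, contained 14 lower and 0 higher DEG among 92 loci (15.2%, against 4.02% of all tested loci), with a median log2 fold change of -0.94 against 0.02 over all loci, and 0 at an adjusted p in edgeR (15 were under an unadjusted p of 0.05). The median was -1.54 in replicate 1 and 0.04 in replicate 2, and 81 loci were lower in replicate 1 against 42 in replicate 2. Without the replicate block the list held 0 DEG. Without 3 dpb replicate 1 the median was -0.11 and 1 locus was a DEG, without 3 dpb replicate 2 the number of DEG was 28, without 6 dpb replicate 1 it was 3, and without 6 dpb replicate 2 it was 8. The summed level of the list was 1730 and 598 CPM at 3 dpb and 843 and 621 CPM at 6 dpb. The highest sum was that of 3 dpb replicate 1, and replicate 1 stood above replicate 2 on both days.

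*Cdk1* (XLOC_040695), the kinase that drives entry into mitosis, stood at 87.7 and 8.51 CPM at 3 dpb and 20.3 and 4.37 CPM at 6 dpb (log2 fold change -1.64 ± 0.53, adjusted p = 0.587). *Bub1*, a kinase of the spindle checkpoint, stood at 12.8 and 0.778 CPM and then 3.01 and 0.336 CPM. *Dlgap5* (XLOC_049216), a protein of the spindle that is not in the list, stood at 22 and 4.13 CPM and then 5.34 and 1.21 CPM, with a log2 fold change of -1.91 ± 0.35 (adjusted p = 0.121), and a further *Dlgap5* locus (XLOC_052139) had -1.81 ± 0.33. In these genes both replicate numbers had a lower value at 6 dpb, while replicate 1 at 6 dpb was still above replicate 2 at 3 dpb, so the days overlapped in *Cdk1*, *Bub1* and *Dlgap5*.

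The DNA replication list (66 loci) covers origin licensing, polymerases and nucleotide supply. It had 3 lower and 0 higher DEG (4.55%, against 4.02% of all tested loci and 2.64% of named loci). Its median was -0.31, with -0.71 and 0.07 in the 2 replicate numbers. *Pold2*, a subunit of DNA polymerase delta, stood at 9.92 and 5.64 CPM and then 5.70 and 1.82 CPM (log2 fold change -1.19 ± 0.31, adjusted p = 0.353), and *Pnca*, spelled so in the table, at 6.39 and 4.77 CPM and then 3.53 and 1.08 CPM. *Rrm2_1* (XLOC_073925), a subunit of the enzyme that makes deoxynucleotides, stood at 86.2 and 3.79 CPM and then 16.6 and 2.36 CPM. Summed levels of the list were 867 and 334 CPM at 3 dpb and 451 and 330 CPM at 6 dpb.

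The excess of replicate 1 in both lists was present in every group at 0 and 3 dpb. Summed mitosis levels lay between 1340 and 1750 CPM in the 6 libraries of replicate 1 at 0 and 3 dpb, and between 562 and 749 CPM in those of replicate 2, with no overlap. At 6 dpb the sums were 926 and 625 CPM in anterior and 1150 and 838 CPM in posterior fragments. The mitosis median of posterior fragments from 3 to 6 dpb was -0.57 in replicate 1 and 1.35 in replicate 2, and that of DNA replication was 0.10 and 1.53.

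**Figure D4:**
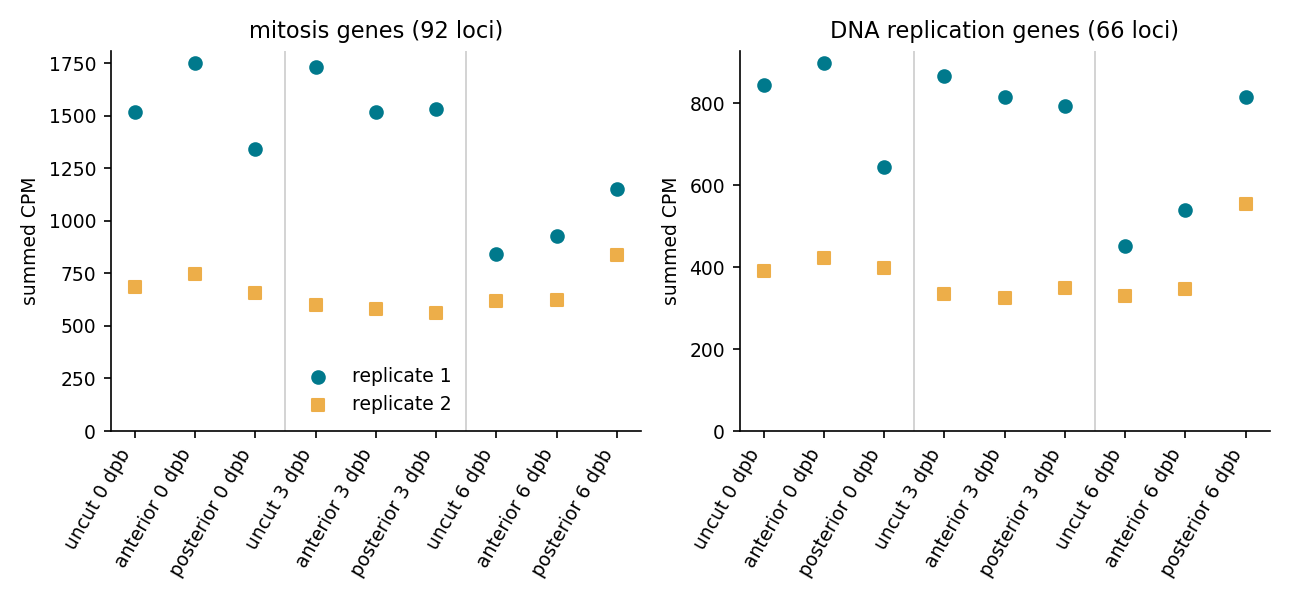
Summed CPM of the 92 mitosis loci (left) and 66 DNA replication loci (right) in each of the 18 libraries, by group, with replicate 1 as circles and replicate 2 as squares. At 0 and 3 dpb the replicate 1 libraries of the mitosis list lie between 1340 and 1750 CPM and the replicate 2 libraries between 562 and 749 CPM, and at 6 dpb the uncut libraries are at 843 and 621 CPM.

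For the proteasome, chaperone and ribosome biogenesis lists the median change was larger in replicate 2 than in replicate 1. Leaving out 1 library moved every one of the 30 list medians by over 1.5 times or turned it, and 24 of them changed sign or reached 0. The proteasome list (50 loci), whose complex degrades proteins, had a median of 0.34, with 0.01 in replicate 1 and 0.62 in replicate 2 (-0.03 to 0.67 without 1 library). The list had 44 loci with a positive fitted change, against 16612 of all 31798 tested loci. *Psma5*, a subunit of the proteasome core, was its single DEG with 8.31 and 5.25 CPM and then 10.1 and 15.9 CPM. Heat shock proteins and chaperones (97 loci) had a median of 0.32 (0.02 and 0.50, and -0.16 to 0.67 without 1 library). They held 2 higher and 1 lower DEG (3.09%, against 4.02% of all tested loci and 2.64% of named loci). The higher ones were *Cct5*, a chaperonin subunit, with 5.03 and 5.79 CPM and then 8.26 and 16.4 CPM, and *Pdia4*, a disulfide isomerase, with 6.31 and 2.24 CPM and then 6.73 and 12.1 CPM. *Dnajb1*, an Hsp40 co-chaperone, stood at 3.07 and 81.6 CPM and then 3.30 and 12.6 CPM, so its lower value was set by a high level in 3 dpb replicate 2, and without that library its log2 fold change was 0.38.

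Cytosolic ribosomal proteins (93 loci) had a median of 0.12 with 0.16 and 0.08 in the replicate numbers. They had 2 higher DEG and 1 lower DEG, the joint locus *Rps16|Ube2m*. Together these were 3.23%, against 4.02% of all tested loci and 2.64% of named loci. *Rps15* stood at 20.5 and 28.7 CPM and then 33.6 and 118 CPM, and *Rpl3* at 1.75 and 0.535 CPM and then 5.79 and 1.41 CPM, both proteins of the ribosome itself. Ribosome biogenesis (125 loci) had a median of 0.17 and 0 DEG, with -0.15 in replicate 1 and 0.43 in replicate 2, and mitochondrial ribosomal proteins (45 loci) a median of 0.19 with -0.08 and 0.44. *Mrpl19*, a protein of the large mitochondrial subunit, was the only DEG of the last list, with 7.92 and 5.79 CPM and then 4.24 and 2.29 CPM. The respiratory chain (100 loci) had a median of 0.04 and 3 DEG (3%). These were *Sdhb* of complex II, higher with 0.214 and 0.146 CPM and then 1.95 and 3.50 CPM, *Atp5d* of ATP synthase, lower with 28.5 and 34 CPM and then 15.8 and 11.0 CPM, and *Ndufs3* of complex I, lower with 4.60 and 1.61 CPM and then 0.589 and 0 CPM.

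Lists of feeding and digestion held DEG at shares of 1.92% (digestive enzymes), 2.9% (lysosomal enzymes) and 6.49% (nutrient transporters). The share was 4.02% of all tested loci and 2.64% of named loci. Digestive enzymes (52 loci) had a median of -0.26, -0.34 in replicate 1 and -0.17 in replicate 2. Of them 22 were lower and 6 higher in both replicate numbers, against 7068 lower and 7510 higher of all 31798 loci. Without 1 library this median lay between -0.37 and -0.01. Over the same days the 9 gut marker loci summed to 1120 and 1100 CPM and then 807 and 1060 CPM. Amylase loci (*Amy2* and *Amy_9*) are among these markers, so their sum is not a measure separate from digestive enzymes. The part of the gut markers in this list's median was not tested. The single DEG, *Cpa2L* (XLOC_012914), named for a pancreatic carboxypeptidase, stood at 45.4 and 40.1 CPM and then 24.7 and 12 CPM, with a log2 fold change of -1.25 ± 0.40 (adjusted p = 0.556). Lysosomal enzymes (69 loci) had a median of -0.20 (-0.4 to 0 without 1 library) and 2 lower DEG, *Neu1* and *Ctsl*, a cathepsin protease with 44.9 and 43 CPM and then 23.4 and 12 CPM. Nutrient transporters (77 loci) had a median of -0.04 with 2 higher and 3 lower DEG. *Slc7a7* XLOC_043031, named for an amino acid transporter, stood at 0.428 and 1.12 CPM and then 1.53 and 26.8 CPM, while *Slc5a12_1*, named for a monocarboxylate transporter, stood at 10.8 and 22.1 CPM and then 9.30 and 125 CPM, a difference held by 6 dpb replicate 2 (log2 fold change -0.01 without that library). A further *Slc7a7* locus, XLOC_038158, was a lower DEG with 4.82 and 5.2 CPM and then 3.84 and 1.08 CPM (log2 fold change -1.12). The other lower DEG were *Slc7a11_2*, named for a cystine transporter, with 2.75 and 2.14 CPM and then 0.565 and 0.606 CPM, and *Slc5a9*, with 16.5 and 0.924 CPM and then 3.84 and 0.202 CPM.

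In lipid and sterol metabolism (114 loci) the median was 0.03 and *Acly_2* was the only DEG. It is named for ATP citrate lyase, which supplies acetyl-CoA for fatty acid synthesis, and stood at 133 and 1520 CPM at 3 dpb and 529 and 2240 CPM at 6 dpb (log2 fold change 1.20 ± 0.53, adjusted p = 0.88). The replicates of each day differed more than the days did within either replicate number, and the locus overlaps another tested one. At 0 dpb it had been at 401 and 610 CPM.

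The extracellular matrix list (93 loci) contained 6 higher and 3 lower DEG (9.68%, against 4.02% of all tested loci) while its median was -0.23 (-0.55 to 0.04 without 1 library), so its DEG and its median pointed in different directions. *Mt5/MmpL3* (XLOC_054262), a membrane-type matrix metalloprotease, stood at 4.35 and 6.37 CPM and then 11.3 and 10.8 CPM (log2 fold change 1.09 ± 0.32, adjusted p = 0.491). *Ecm/Tspn/Vwc/Vwd* (XLOC_037121), named for thrombospondin and von Willebrand factor domains, stood at 4.46 and 3.60 CPM and then 1.20 and 0.202 CPM. *Tnr*, a tenascin, had 213 counts in 6 dpb replicate 1 and 2 in all other libraries of the comparison. *Msp130r6*, related to a surface protein of sea urchin skeletal cells, was the only DEG of the biomineralization list (15 loci). It stood at 9.10 and 2.72 CPM and then 21.4 and 5.18 CPM. The median of the list was 0.49, with 0.04 in replicate 1 and 0.85 in replicate 2.

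Motile cilium genes (189 loci) had a median of 0.15 with 2 higher DEG and 1 lower (1.59%, against 4.02% of all tested loci and 2.64% of named loci). All 3 were named *Ttc26*, an intraflagellar transport protein for which 13 loci carry the name. *Ttc26* XLOC_020135 was the most abundant of the 3, with 16.4 and 16.1 CPM and then 27.9 and 49.7 CPM. The *Ttc26* loci may be parts or copies of one gene, so reads of one can be split among them. The muscle list (27 loci, many of them ryanodine receptor loci) had a median of -0.14.

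Of the synapse and transmitter list (96 loci, median -0.12), *MaoaL* passed at an adjusted p. With it, DEG made up 4.17% of the list, against 4.02% of all tested loci and 2.64% of named loci. Besides *MaoaL*, 1 locus was a higher DEG and 2 were lower DEG, named here after their values were seen because they are few. *Hdc_2*, named for histidine decarboxylase, which makes histamine, stood at 2.46 and 2.48 CPM and then 0.235 and 0 CPM. *Dbh_1*, named for dopamine beta-hydroxylase, which makes noradrenaline, stood at 0.927 and 3.11 CPM and then 2.61 and 12.2 CPM, and *Nlgn4y*, a neuroligin of synapses, at 4.35 and 2.43 CPM and then 1.58 and 0.269 CPM. Transmitter receptors and ion channels (132 loci) had a median of 0.03 and 1 higher and 4 lower DEG (3.79%). *Gabrb3L*, a GABA receptor subunit, stood at 19.9 and 7.34 CPM and then 9.44 and 3.77 CPM, and *GabrA*, named for another subunit, at 0.392 and 4.47 CPM and then 0.895 and 15.1 CPM. *Scn8a*, a sodium channel, was at 3.00 and 0 CPM and then at 0 in both libraries, so only replicate 1 carried it, and nearly all reads came from replicate 1 at the other *Scn8a* locus among the lower DEG (XLOC_026522), with 8.49 and 0.146 CPM and then 0.188 and 0.0673 CPM. Opsin and clock genes (24 loci) had a median of 0.04 and 1 DEG, *Rgs9bp*.

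Innate immunity (194 loci) had a median of 0.01 and 8 higher and 2 lower DEG (5.15%, against 4.02% of all tested loci and 2.64% of named loci). Besides *Pgrp3*, the other lower DEG was *Clect/Egf/PanApple*, a C-type lectin domain protein with 59.5 and 118 CPM and then 33.5 and 48.7 CPM. Among the higher ones *Sarmr4*, named for a Toll pathway adaptor, stood at 1.82 and 1.85 CPM and then 3.53 and 5.45 CPM, and *Clect/Ldla/Lrr/Gpcr*, another lectin domain protein, at 6.06 and 2.24 CPM and then 8.22 and 9.02 CPM. Xenobiotic metabolism (262 loci) was even, with a median of 0.02 and 6 DEG in each direction (4.58% of the list together). *Cyp3L8*, a cytochrome P450, stood at 1.57 and 3.84 CPM and then 6.80 and 7.00 CPM, and *Aldh2_1*, an aldehyde dehydrogenase, at 11.3 and 8.90 CPM and then 4.45 and 5.45 CPM.

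Loci named as mobile elements contained 3 higher and 3 lower DEG among 42 (14.3%, against 4.02% of all tested loci and 2.64% of named loci), with a median of 0.03. *Endrvt33* XLOC_060927, named as an endogenous retrovirus, stood at 2.68 and 1.31 CPM and then 41.5 and 4.37 CPM (log2 fold change 2.86 ± 0.51, adjusted p = 0.0975). *Endrvt102* XLOC_015843 stood at 2.53 and 16.7 CPM and then 0.989 and 2.29 CPM. Several loci share each of these names, so their reads may have been divided by the counting.

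**Figure D5:**
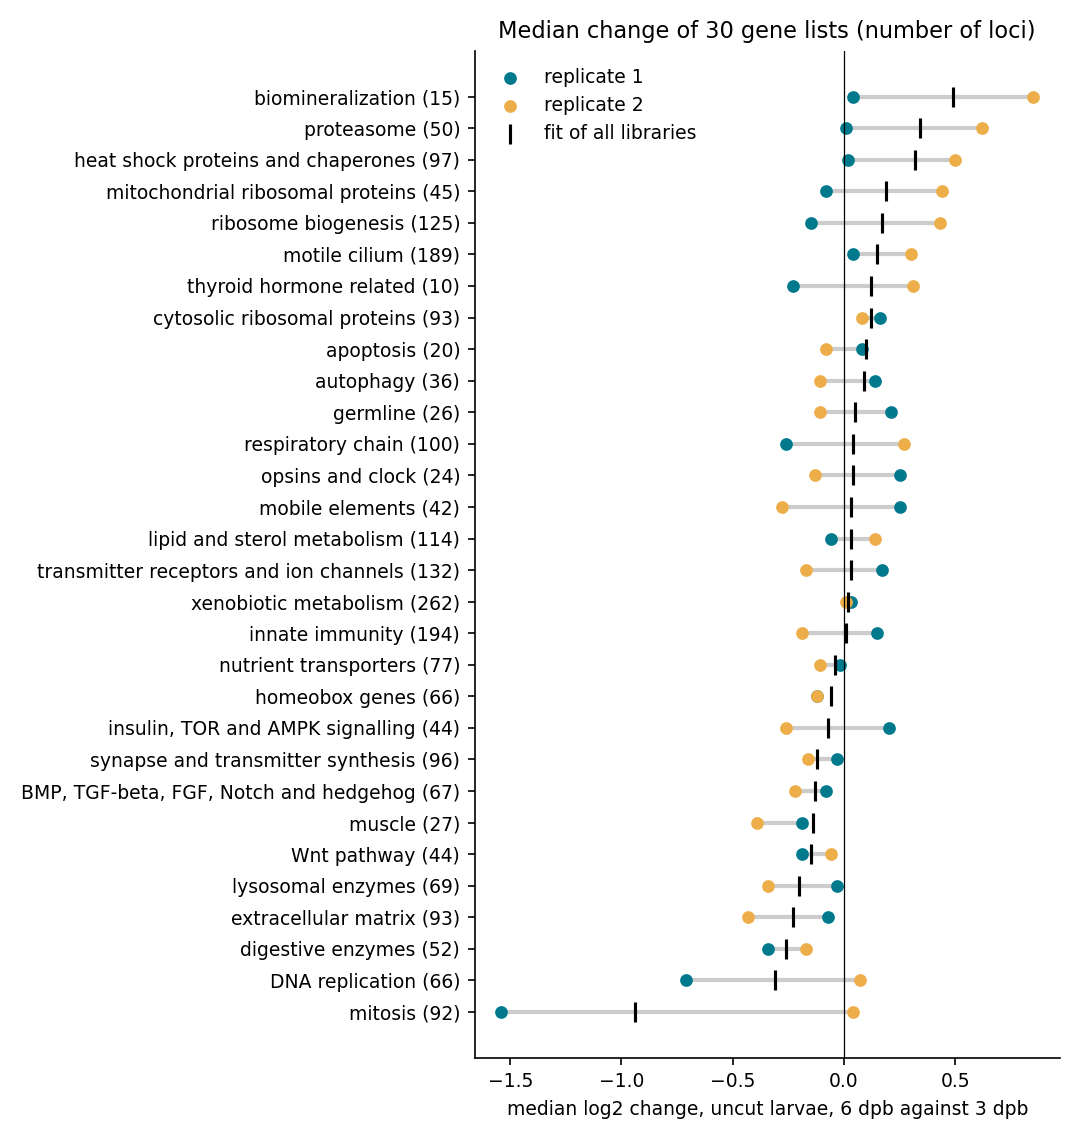
Median log2 change from 3 to 6 dpb of 30 gene lists in uncut larvae, with the number of loci in parentheses. Blue points are replicate 1, yellow points replicate 2, and black bars the fit of all libraries. Mitosis spans -1.54 to 0.04 between the replicate numbers, and most other medians are within 0.5 of 0.

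Of the Wnt pathway (44 loci, median -0.15) and the BMP, TGF-beta, FGF, Notch and hedgehog list (67 loci, median -0.13), 0 were DEG in edgeR, with 1 and 0 under an unadjusted p of 0.05. Homeobox genes (66 loci, median -0.06) contained 3 DEG (4.55%, against 4.02% of all tested loci and 2.64% of named loci). These were 1 higher DEG, *Hox8* with 1.89 and 0.778 CPM and then 5.46 and 2.02 CPM, and 2 lower DEG, both named *Hox5*. *Hox5* XLOC_037592 stood at 11.1 and 2.29 CPM and then 3.60 and 0.807 CPM (log2 fold change -1.54 ± 0.42, adjusted p = 0.396), and *Hox5* XLOC_051111 at 16.7 and 7.64 CPM and then 8.83 and 1.08 CPM.

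For the loci of 39 Nanostring probes that the study used for axial, territory and proliferation genes, the fitted log2 changes lay between -0.75 (*Msx*) and 1.22 (the locus of *foxq2*), with 33 of them within 0.5 of 0 and a median of 0.03. None was a DEG, and 1 had an unadjusted p below 0.05. *FoxA*, a regulator of the gut, stood at 326 and 322 CPM at 3 dpb and 266 and 307 CPM at 6 dpb, and *Gatae*, also of the gut, at 43.9 and 39.1 CPM and then 40.8 and 28.6 CPM. *FoxJ1*, the regulator of motile cilia, stood at 89.5 and 156 CPM and then 86.1 and 177 CPM. *Tph* (XLOC_036224), the enzyme that starts serotonin synthesis, stood at 156 and 210 CPM and then 205 and 165 CPM, and *ElavL* (XLOC_025829), a neuronal RNA-binding protein, at 76.0 and 63 CPM and then 75.3 and 91.0 CPM. The libraries of both days overlapped in all of these genes but *FoxA*.

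At the ends of the body axis, *Frizz5/8*, a Wnt receptor of anterior territories, stood at 314 and 191 CPM and then 376 and 226 CPM, and *Frizz9/10*, a receptor of posterior territories, at 117 and 78.8 CPM and then 101 and 67.8 CPM. The anterior regulator *foxq2* (XLOC_013717) stood at 3.42 and 6.32 CPM and then 4.57 and 17.8 CPM, a log2 fold change of 1.22 ± 0.85 (adjusted p = 1). *Wnt3* stood at 14 and 6.61 CPM and then 9.18 and 4.24 CPM, *Wnt16* at 5.49 and 7.2 CPM and then 5.27 and 15.7 CPM, and *Wnt8* at 12 and 15.6 CPM and then 7.96 and 16.3 CPM. The mesenchyme gene *Ets1/2* (XLOC_013353) was the locus under an unadjusted p of 0.05, with 4.32 and 5.74 CPM and then 6.52 and 12.4 CPM (log2 fold change 0.87 ± 0.37, adjusted p = 0.866), and *Erg*, also of mesenchyme, stood at 38.1 and 57.1 CPM and then 40.7 and 71.4 CPM. For these genes a p above the threshold does not show that the days were equal.

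The 5 remaining lists had medians between -0.07 and 0.12 and held 1 DEG. This was *Seawi_1*, a Piwi-family gene of the germline list (26 loci, median 0.05), with 2.53 and 0.876 CPM and then 6.80 and 1.55 CPM. Insulin, TOR and AMPK signalling (44 loci), autophagy (36 loci), apoptosis (20 loci) and thyroid hormone related genes (10 loci) had medians of -0.07, 0.09, 0.10 and 0.12.

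The change of uncut larvae was tested against that of the fragments over the same days. Against anterior fragments 180 loci met the DEG criteria for the difference of the changes (0.566% of those tested), and against posterior fragments 582 (1.83%). In edgeR 0 loci passed an adjusted p of 0.05 in either test, with 187 and 643 under an unadjusted p of 0.05, and DESeq2 called 15 in each. With the replicate block fitted within each time point, which these tests allow, edgeR called 2 against anterior and 46 against posterior fragments. On their own, anterior fragments had 1433 DEG (4.51%) and posterior fragments 2148 (6.76%) from 3 to 6 dpb, against 1279 in uncut larvae, counts that were not tested against each other.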

How the data were processed

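RNA was extracted from pools of about 300 larvae and sequenced as 50 bp single reads (HiSeq). The authors trimmed reads with Trimmomatic, used TopHat2 2.0.12 for alignment (genome assembly v1.0), assembled loci with Cufflinks 2.2.1 and counted reads per locus with HTSeq 0.6.1p1, and the deposited values are these raw counts. Whether the counting used strand is not given in the sources used here. Columns with the authors' fold changes and p values were not used. Reads outside loci (2.37 to 3.65%) and ambiguous reads (6.12 to 8.74%) were left out of library sizes.

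Loci at more than 3 CPM in at least 2 of the 18 libraries were fitted together in edgeR 4.0.16 (R 4.3.3, quasi-likelihood test, TMM) with 1 term per group and the replicate number as block, since the study controlled for sample batch. P values are two-sided and adjusted by Benjamini-Hochberg over all 31798 loci. A DEG had an unadjusted p below 0.05 and over 2-fold. Same-numbered uncut libraries of 3 and 6 dpb deviated together (correlation of deviations 0.423), with 2 pairs only. Between groups of the same day this correlation was 0.742 to 0.916. The single replicate term covers only the part shared by all days, and the libraries were otherwise treated as independent. The p values can therefore be too small. Common dispersion (spread beyond counting error) was 0.146 with this term and 0.0475 with a block within each time point. DESeq2 1.42.0 and other filters, scalings, samples and blocks were alternatives. Changes per replicate number used a prior count of 2.

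Named genes were named loci with a mean of at least 3 CPM moving the same way in both replicate numbers, up to 12 per direction, by adjusted p and then as DEG by unadjusted p; in each gene list, the adjusted calls or else up to 2 DEG per direction; and the loci of the study's Nanostring probes for axial and territory genes. The members and lists were chosen with earlier results of these data known. Intervals and floors (3 counts) cover counting error only. Some loci that the rule named are not reported here.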

Additional observations from a re-analysis of the deposited data

Results flagged for a closer look

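For 5 of the 30 gene lists the median changes of both uncut replicates were opposite in sign to both replicates of a fragment. Such signs also arise by chance, and the number expected was not computed. Leaving out 1 library brought the fitted uncut median of each of these lists to 0 or across it. The difference itself was not tested for these lists. Values are mean log2 changes of the list medians from 3 to 6 dpb, with replicates 1 and 2 in parentheses.

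Homeobox genes were at -0.12 (-0.12 and -0.12) in uncut larvae, while anterior fragments were at 0.07 (0.03 and 0.12) and posterior ones at 0.39 (0.23 and 0.55). The extracellular matrix list was at -0.25 (-0.07 and -0.43) in uncut larvae and 0.39 (0.09 and 0.69) in posterior fragments. The BMP, TGF-beta, FGF, Notch and hedgehog list was at -0.15 (-0.08 and -0.22) against 0.27 (0.21 and 0.33).

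In the other direction, motile cilium genes were at 0.17 (0.04 and 0.3) in uncut larvae and -0.2 (-0.12 and -0.28) in posterior fragments, and cytosolic ribosomal proteins at 0.12 (0.16 and 0.08) and -0.1 (-0.02 and -0.18). The gene *Acly_2* was at 1.27 (1.99 and 0.56) in uncut larvae and -3.1 (-3.26 and -2.94) in posterior fragments, and the difference between these changes was tested for it across all loci in edgeR, with an adjusted p of 0.975 (difference 4.29, unadjusted p = 0.000133). With a separate replicate block for each day the adjusted p was 0.0261, in DESeq2 6.79e-05, and without the replicate block 1. No group of this comparison has 4 libraries, so no library was tested as standing apart.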

How the results depend on the processing

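The number of DEG was 1279 and stood at 1474 in DESeq2, 1276 with DESeq2 size factors, 1224 with library size alone, 2574 with a filter at 1 CPM, 4975 with no filter and 1773 with no minimum fold. It was 999 in the 4 uncut libraries alone and 904 in the 6 uncut libraries. Without the replicate block it was 470, and 409 in the 4 uncut libraries alone. Leaving out 1 library gave 999 to 2399 DEG (2399 without 6 dpb replicate 1). Loci at an adjusted p numbered 19, and 190 in DESeq2, 29 with no filter, 31 at 1 CPM, 2 without the replicate block, 0 in the 4 or 6 uncut libraries alone (991 under an unadjusted p of 0.05 in the 6) and 2 to 10 without 1 library. The filters change the number of loci tested and the smaller fits the number of libraries, and the other causes were not tested. DESeq2 kept 91.9% of the DEG and the fit without block 35.7%.

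Differences from the change of anterior fragments met the DEG criteria at 180 loci, 103 without the replicate block and 534 with the block within each time point, and those from posterior fragments at 582, 75 and 1635. The mitosis list held 14 DEG, 0 without the replicate block, 9 in the 4 or 6 uncut libraries with it, 0 in the 4 uncut libraries with no block, and 1 to 28 without 1 library. Its median ranged from -1.27 to -0.85, and from -1.3 to -0.11 without 1 library. Without 1 library Dnajb1 (XLOC_035002) ranged from -2.93 to 0.38, turning without 3 dpb replicate 2, and Slc5a12_1 (XLOC_048483) from -0.01 to 2.25, turning without 6 dpb replicate 2. For the named genes, 937 values under other settings were counted as unchanged and 206 lost their call with the same direction. Unchanged means a kept call. For the 39 loci of Nanostring probes, which had no call to keep, it means a shift of under 1 SE. Without 1 library, 23 values of these probe loci moved further than that, and 2 values of other loci turned. Over the lists, 24 of 30 medians changed sign or reached 0 without 1 library. A total of 3 counts corresponds to 0.083 to 0.183 CPM in the 4 libraries.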

Other observations

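The 15 most abundant named loci of uncut larvae had adjusted p values of 0.922 or more. *Pks1* (XLOC_039332), a polyketide synthase, stood at 1930 and 16100 CPM at 3 dpb and 5410 and 15900 CPM at 6 dpb, and *Plec*, named for the cytoskeletal linker plectin, at 4830 and 16800 CPM and then 1040 and 12200 CPM. Replicate 2 was above replicate 1 on both days in both genes. *FerHc*, the iron store ferritin, stood at 4170 and 6950 CPM and then 5380 and 8260 CPM, *Ef1a*, the translation elongation factor, at 5260 and 6190 CPM and then 5410 and 6720 CPM, and *Vtgn1*, named for the yolk protein vitellogenin, at 1030 and 3270 CPM and then 1430 and 6600 CPM.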
